A study of Solanum tuberosum with 12 samples.

Results

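Oxylipins are oxygenated fatty acids that leaves make on wounding, during infection and as they age. Lipoxygenases and alpha-dioxygenases add oxygen to polyunsaturated fatty acids released from membranes. The lipoxygenase branch leads to jasmonic acid, leaf volatiles or divinyl ethers, and methyl transfer turns jasmonic acid into its volatile methyl ester. In the leaves of potato and tomato, jasmonates are known for inducing proteinase inhibitors and polyphenol oxidases.

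In potato (Solanum tuberosum) leaves, the authors listed 6438 transcripts as differing between high and normal temperature at either of 2 ages. Described here are 4 of them that encode enzymes of this kind. They are PGSC0003DMG400020999 and PGSC0003DMG400010859, both annotated as lipoxygenase and called lipoxygenase A and lipoxygenase B below, PGSC0003DMG400000505 (Alpha-DOX1, an alpha-dioxygenase) and PGSC0003DMG400003743 (jasmonate O-methyltransferase). All 4 were picked by identifier from the authors' tables with their changes already known, and all are among the 580 transcripts listed at both ages. The annotated product names are the only evidence here of what each enzyme does. Lipoxygenases and the other families below hold similar genes that could share reads.

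All plants were of the cultivar Desiree, raised as plantlets in sterile culture and then grown in soil with 12 h of light and 12 h of darkness. Normal temperature (NT) meant 22 °C in light and 16 °C in darkness, and high temperature (HT) meant 35 °C in light and 29 °C in darkness. Plants were kept at NT or HT for 3 or 8 weeks, and RNA came from the upper 5 leaves. Age below means these weeks, not a measured age of the leaves. Plant age and time at the temperature cannot be told apart in it. Each of the 4 groups held 3 libraries, with totals between 52514661 and 66602938 counts. The labels do not say that the libraries came from separate plants, so the p-values speak to the spread among these libraries, and that spread may be technical. In bulk leaf RNA, fewer cells of a type and less RNA per cell cannot be told apart.

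Leaf markers differed with temperature. The 5 listed chlorophyll a-b binding proteins of 3 weeks were all lower at HT, with sums of 5640 to 6409 CPM (counts scaled to a library total of 1000000) at NT and 2236 to 2528 CPM at HT. The 25 listed at 8 weeks were all higher at HT, with sums of 4981 to 5276 CPM at NT and 15071 to 41569 CPM at HT. Rubisco activase was 31.0 to 38.3 CPM at NT and 276 to 437 CPM at HT at 3 weeks, and only 7.20 to 12.1 CPM at NT against 193 to 564 CPM at HT at 8 weeks. The part of these markers in the results below was not tested. Of the NT libraries at 8 weeks, replicate 3 stood apart in senescence markers. It had 7.85 CPM of a senescence-specific cysteine protease against 1119 and 1233 CPM in replicates 1 and 2, and 6.30 CPM of 2 staygreen transcripts against 116 and 179 CPM. The HT libraries of that age had 2.05 to 2.55 CPM of the protease and 3.44 to 7.97 CPM of the staygreen transcripts. Patatin, the tuber storage protein, summed over 8 transcripts to 54.2 to 74.7 CPM at NT and 103 to 254 CPM at HT at 8 weeks. Of these 8, 5 were higher and 2 lower at HT, so the sum does not hold for each. The 1 patatin transcript listed at 3 weeks went the other way, with every HT library below every NT library.

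The first question of the design was how leaves at HT differed from leaves at NT of the same age. At 3 weeks both lipoxygenases and Alpha-DOX1 were higher at HT and the methyltransferase was lower. At 8 weeks lipoxygenase A was again higher, while lipoxygenase B and Alpha-DOX1 were lower, as was the methyltransferase. These contrasts chose the transcripts, so they are given as descriptions with no test. Nearly every transcript tested passed the edgeR quasi-likelihood test at an adjusted p under 0.05, 97.5% at 3 weeks (60.3% higher, 37.2% lower) and 97.3% at 8 weeks (59.3% higher, 38% lower), so nothing is read from the number of the 4 that did.

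Lipoxygenase A had the same direction at both ages. Its level was 0.210, 0.305 and 0.313 CPM in the NT libraries of 3 weeks and 1.67, 1.72 and 1.85 CPM in the HT libraries. At 8 weeks it was 0.438, 0.188 and 0.331 CPM at NT and 6.22, 3.59 and 6.85 CPM at HT. The HT libraries were above the NT libraries at each age without overlap, with HT replicate 2 the lowest HT library at 8 weeks. The log2 difference, HT minus NT, was 2.25 ± 0.34 (SE) at 3 weeks and 4.02 ± 0.59 at 8 weeks. These log2 differences carry a constant by which the authors' fold changes departed from plain CPM. It shifts HT minus NT by -0.40 at 3 weeks and by -0.095 at 8 weeks, and its origin was not stated.

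Lipoxygenase B changed sides between the ages. Its level at 3 weeks was 1.26, 5.04 and 2.43 CPM at NT and 5.07, 27.6 and 15.3 CPM at HT. The lowest HT library was only 1.01-fold above the highest NT library. At 8 weeks the level was 206, 196 and 258 CPM at NT and 1.22, 2.27 and 41.7 CPM at HT. All HT libraries were below all NT libraries there, with a 34.2-fold span among the HT libraries because replicate 3 was far above the others. The log2 difference was 2.05 ± 0.70 at 3 weeks, 1.40 without HT replicate 2 and 2.71 without NT replicate 2. It was -3.96 ± 1.23 at 8 weeks, and this value was -7.07 without HT replicate 3 and -5.76 with the replicate number as a block.

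Alpha-DOX1, which adds oxygen at the alpha carbon of a fatty acid, had the same order of groups. Its level at 3 weeks was 1.47, 0.916 and 1.01 CPM at NT and 1.58, 8.93 and 4.54 CPM at HT. As for lipoxygenase B, HT replicate 1 was close to the NT libraries (1.07-fold above the highest) and HT replicate 2 was the highest. At 8 weeks the level was 92.2, 84.5 and 54.9 CPM at NT and 0.715, 1.97 and 9.08 CPM at HT. HT replicate 1 was again the lowest and HT replicate 3 the highest of the HT libraries, and all lay below NT. The log2 difference was 1.74 ± 0.60 at 3 weeks, 1.03 without HT replicate 2, and -4.39 ± 0.91 at 8 weeks, -5.94 without HT replicate 3.

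Jasmonate O-methyltransferase, which makes methyl jasmonate, was lower at HT at both ages. Its level at 3 weeks was 0.420, 0.255 and 0.313 CPM at NT and 0.0927, 0.165 and 0.122 CPM at HT. At 8 weeks it was 3.83, 4.26 and 1.58 CPM at NT and 0.0523, 0.150 and 0.168 CPM at HT. The groups did not overlap at either age, but the HT levels rest on 6, 10 and 7 counts at 3 weeks and 3, 10 and 10 counts at 8 weeks. The log2 difference was -1.76 ± 0.45 at 3 weeks and -4.77 ± 0.74 at 8 weeks.

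**Figure D1:**
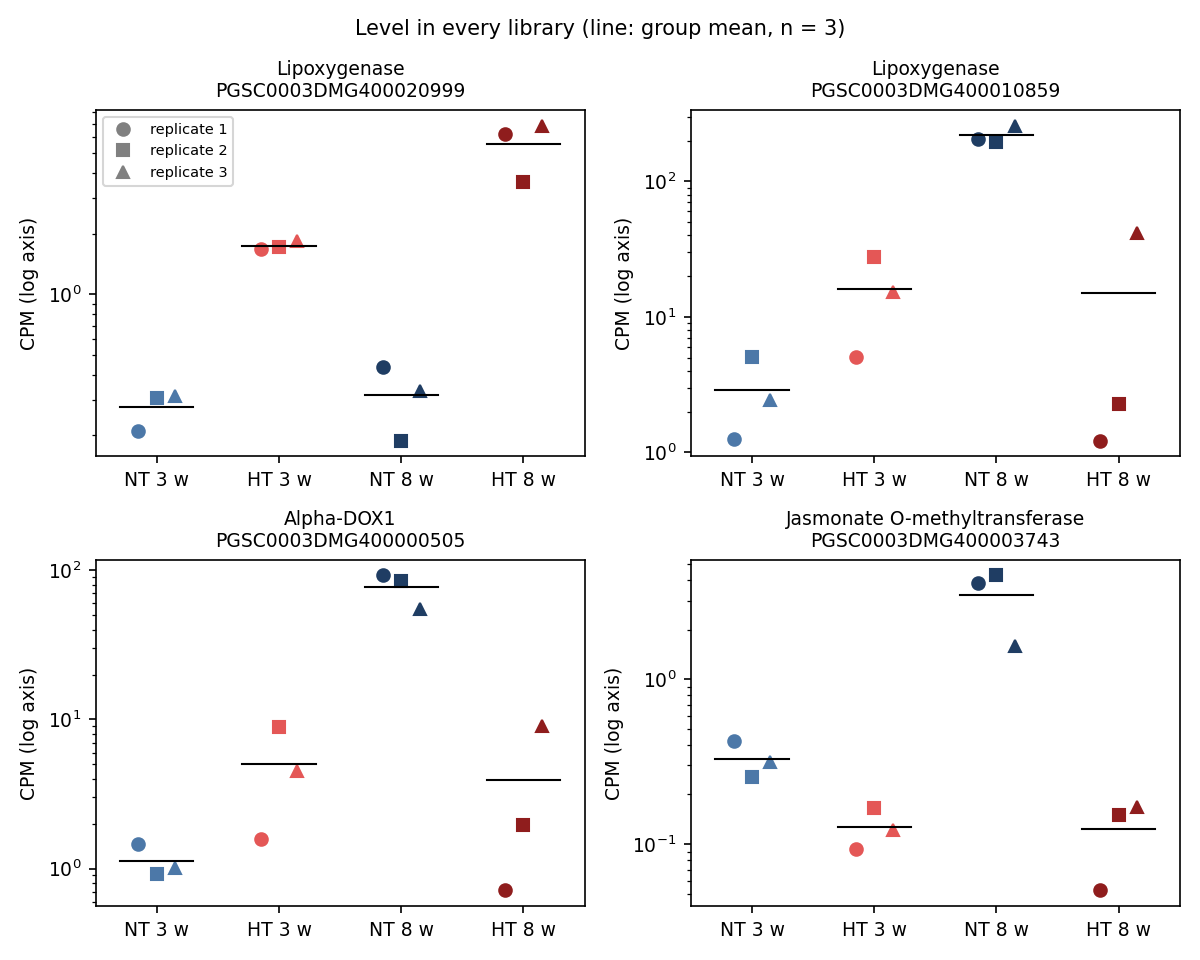
Level of each transcript in every library, in CPM on a log axis, by temperature and weeks (w). Points are libraries with their replicate number as shape and lines are means of n = 3. Lipoxygenase B and Alpha-DOX1 reach means of 220 and 77.2 CPM at NT at 8 weeks, while lipoxygenase A is highest at HT at 8 weeks (5.55 CPM).

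The values just inside the authors' limits, an absolute log2 fold change of 1.5, were those of the 3-week table. In the authors' deposited table Alpha-DOX1 had a log2 fold change of 1.75 and the methyltransferase one of -1.77 at that age. Transcripts just outside the limits were not analysed here. DESeq2 size factors assume that the typical listed transcript does not change, and they moved the median difference of all tested transcripts by -1.23 at 3 weeks and -1.33 at 8 weeks. When they replaced the library totals, the 3-week log2 differences were 1.04 for lipoxygenase A, 0.84 for lipoxygenase B, 0.53 for Alpha-DOX1 and -2.96 for the methyltransferase. The 8-week differences were then 2.68, -5.22, -5.66 and -6.02.

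The second question, which the choice of transcripts did not use directly, was how each changed from 3 to 8 weeks within a temperature. At NT, lipoxygenase B, Alpha-DOX1 and the methyltransferase rose from 3 to 8 weeks and lipoxygenase A did not pass the test. At HT only lipoxygenase A passed the test, and that call was lost in 7 of 13 alternatives. The tests cover the 576 of 580 transcripts listed at both ages that had enough counts, in 1 fit over the 12 libraries. They use the same libraries that chose the transcripts, so their results are partly set by that choice. A transcript higher at HT at 3 weeks and lower at 8 weeks must have a higher change with age at NT than at HT. This holds for lipoxygenase B and Alpha-DOX1.

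At NT, lipoxygenase B was 2.91 ± 1.93 CPM (SD, n = 3) at 3 weeks and 220 ± 33.1 CPM at 8 weeks. This is a 75.4-fold rise, or 6.24 ± 1.32 on the log2 scale (edgeR quasi-likelihood test, Benjamini-Hochberg adjusted p = 0.0017), and 6.89 without NT replicate 2 of 3 weeks (adjusted p = 0.0060). Alpha-DOX1 went up 68.1-fold, from 1.13 ± 0.298 to 77.2 ± 19.7 CPM (log2 6.09 ± 0.99, edgeR, adjusted p = 0.00025). The methyltransferase went up 9.74-fold, from 0.329 ± 0.0841 to 3.22 ± 1.43 CPM (log2 3.28 ± 0.58, edgeR, adjusted p = 0.00045). For these 3 every NT library of 8 weeks was above every NT library of 3 weeks, with gaps of 38.8-fold, 37.3-fold and 3.77-fold. The share of all transcripts tested that separated so was not counted, here or in the other comparisons. Of all transcripts tested, 46.2% were called in this contrast, 31.2% higher and 14.9% lower, so calls were common. Under TMM scaling the changes were 4.50, 4.31 and 1.52 on the log2 scale, the smallest of the 13 alternatives, and all 3 stayed called.

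Lipoxygenase A at NT was 0.276 ± 0.0572 CPM at 3 weeks and 0.319 ± 0.125 CPM at 8 weeks, and the libraries of the ages overlapped. Its log2 change was 0.20 ± 0.46 (edgeR, adjusted p = 0.74). The sign turned with the scaling, to -0.94 with DESeq2 size factors (edgeR, adjusted p = 0.15) and to -1.55 with TMM (edgeR, adjusted p = 0.015). Over all tested transcripts those scalings moved the median change at NT by -1.16 and -1.74, and turned the split of calls from 180 higher and 86 lower to 127 and 159, and to 110 and 222.

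The NT library that stood apart in senescence markers, replicate 3 of 8 weeks, had the lowest Alpha-DOX1 and methyltransferase levels and the highest lipoxygenase B level of its group. Without it the changes with age at NT were 6.11 for lipoxygenase B, 6.28 for Alpha-DOX1 and 3.61 for the methyltransferase, with adjusted p of 0.0048, 0.00062 and 0.00031 (edgeR). All 3 are close to the values with it.

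At HT, lipoxygenase A was 1.74 ± 0.0914 CPM at 3 weeks and 5.55 ± 1.73 CPM at 8 weeks, with no overlap and a gap of 1.94-fold. Its log2 change was 1.67 ± 0.44 (edgeR, adjusted p = 0.035). The direction stayed in all 13 alternatives (1.43 to 1.91), but the adjusted p rose to 0.081 with DESeq2 size factors or TMM, to 0.075 with the replicate block, and to between 0.10 and 0.15 without any of the 3-week HT libraries or without HT replicate 3 of 8 weeks (edgeR). Only 7.47% of the transcripts tested were called in this contrast, 5.38% higher and 2.08% lower.

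The other 3 did not pass the test at HT, and their libraries of the ages overlapped. Lipoxygenase B was 16.0 ± 11.3 CPM at 3 weeks and 15.1 ± 23.1 CPM at 8 weeks, which on the log2 scale is -0.085 ± 1.05 (edgeR, adjusted p = 0.97). That value depended on HT replicate 3 of 8 weeks, without which it was -3.19 and called (edgeR, adjusted p = 0.040). Alpha-DOX1 was 5.02 ± 3.70 and 3.92 ± 4.51 CPM, or -0.35 ± 0.79 (edgeR, adjusted p = 0.82), which was -1.90 without the same library (adjusted p = 0.15). The methyltransferase was 0.127 ± 0.0363 and 0.123 ± 0.0622 CPM, or -0.028 ± 0.60 (edgeR, adjusted p = 0.98). A missed threshold does not show that a level stayed the same.

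**Figure D2:**
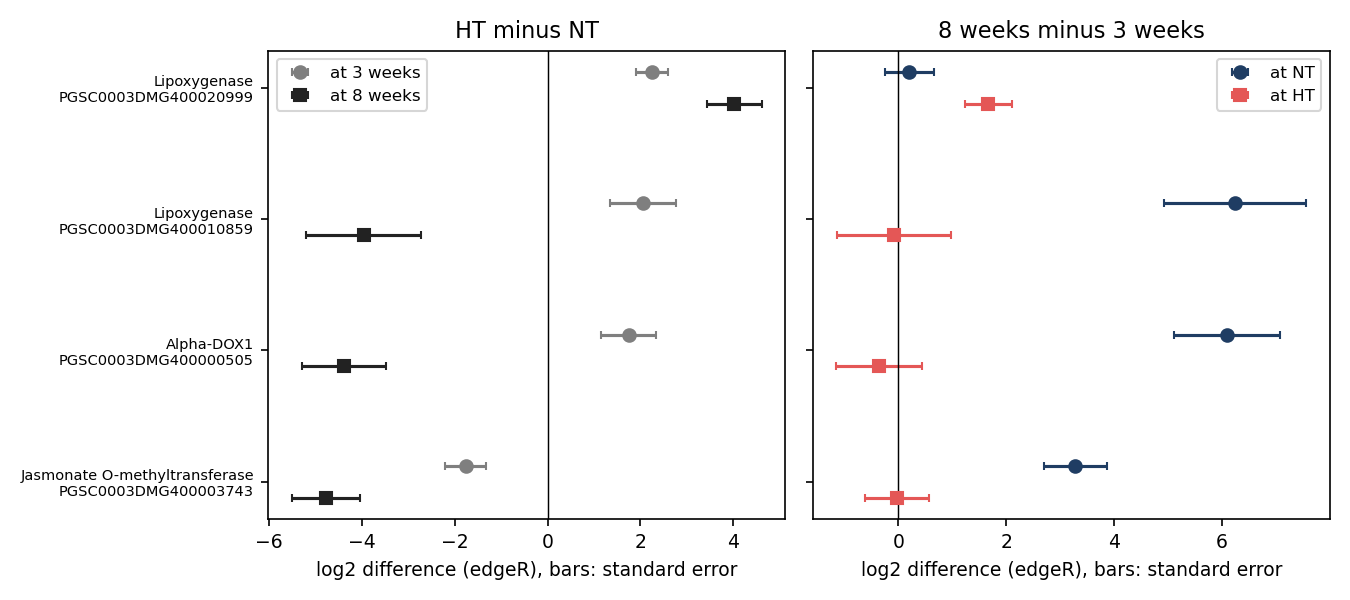
Log2 differences of the 4 transcripts, HT minus NT at each age (left) and 8 weeks minus 3 weeks at each temperature (right); bars are standard errors. Lipoxygenase B and Alpha-DOX1 lie on opposite sides of 0 at the 2 ages on the left (2.05 and -3.96, 1.74 and -4.39), and at NT rise with age by 6.24 and 6.09 on the right.

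Taking each transcript across the 4 groups, the order of means for lipoxygenase B and Alpha-DOX1 was NT at 8 weeks, HT at 3 weeks, HT at 8 weeks and NT at 3 weeks. The HT groups of the 2 ages overlapped, and HT at 8 weeks also overlapped NT at 3 weeks. For the methyltransferase the order was NT at 8 weeks, NT at 3 weeks and then both HT groups, which overlapped. For lipoxygenase A it was HT at 8 weeks, HT at 3 weeks and then both NT groups, which overlapped. The change in the HT minus NT difference from 3 to 8 weeks was 1.77 for lipoxygenase A, -6.02 for lipoxygenase B, -6.14 for Alpha-DOX1 and -3.01 for the methyltransferase, on the log2 scale and not tested.

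By group mean per transcript length, lipoxygenase B was the most abundant of the 4 in every group. Its mean at 3 weeks was 1.02 RPKM (CPM per kilobase of transcript) at NT and 5.62 RPKM at HT. At 8 weeks it was 77.2 RPKM at NT and 5.29 RPKM at HT. This order did not hold in every library. The HT libraries of 8 weeks had 0.429, 0.797 and 14.7 RPKM of lipoxygenase B and 2.21, 1.28 and 2.44 RPKM of lipoxygenase A. In HT replicate 2 of 8 weeks Alpha-DOX1 (0.945 RPKM) was also above lipoxygenase B. In NT replicate 1 of 3 weeks Alpha-DOX1 had 0.707 RPKM and lipoxygenase B 0.443 RPKM. Alpha-DOX1 reached 37.1 RPKM at NT at 8 weeks. Lipoxygenase A did not exceed a mean of 1.97 RPKM (HT, 8 weeks), and the methyltransferase did not exceed 2.31 RPKM (NT, 8 weeks). By mean RPKM at NT at 8 weeks, lipoxygenase B ranked 39 and Alpha-DOX1 63 of the 580 transcripts listed at both ages, the methyltransferase 234 and lipoxygenase A 458.

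Across the 12 libraries the levels, as log2(CPM + 0.5), of lipoxygenase B and Alpha-DOX1 had a Pearson r of 0.967. The methyltransferase had an r of 0.869 with Alpha-DOX1 and 0.775 with lipoxygenase B. Lipoxygenase A had negative values with all, -0.276 with lipoxygenase B, -0.316 with Alpha-DOX1 and -0.604 with the methyltransferase. These values describe 4 groups of libraries in which group means differ, and the transcripts share libraries and depth.

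Among 409 candidates with a product name, the transcript most like lipoxygenase A was a UDP-glucose:glucosyltransferase (PGSC0003DMG400000103, r = 0.985, n = 12 libraries). Next to it were vetispiradiene synthase (PGSC0003DMG400018286, r = 0.984), a sesquiterpene synthase, and a small heat-shock protein homolog (PGSC0003DMG400009255, r = 0.980). Those most like lipoxygenase B were pleiotropic drug resistance protein 1 (PGSC0003DMG402029631, r = 0.978), lichenase (PGSC0003DMG400020017, r = 0.975) and a basic glucan endo-1,3-beta-glucosidase (PGSC0003DMG400040260, r = 0.975), the last of which cleaves beta-glucans. Those most like Alpha-DOX1 were an auxin:hydrogen symporter (PGSC0003DMG400013649, r = 0.976), a cytochrome P450 (PGSC0003DMG400033636, r = 0.973) and inactive purple acid phosphatase 27 (PGSC0003DMG400022979, r = 0.971). Those most like the methyltransferase were a nodulin (PGSC0003DMG400029744, r = 0.967), a receptor serine-threonine protein kinase (PGSC0003DMG400011284, r = 0.963) and a calmodulin (PGSC0003DMG400033565, r = 0.962).

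Other transcripts of the pathway were found by product name and are described by role. The authors listed them on the same contrasts, so a call or an adjusted p-value says little beyond that listing. Of all transcripts tested, 60.3% were called higher and 37.2% lower at 3 weeks, and 59.3% and 38% at 8 weeks. The counts of each role below stand against these shares. At 3 weeks 16 were listed, of which 7 rose and 9 fell at HT, and 1 rose and 9 fell with DESeq2 size factors (median log2 difference -1.79, against 1.66 over all transcripts tested). At 8 weeks 65 were listed, of which 34 rose, 24 fell, 2 did not pass the test and 5 had too few counts (median 2.23, against 1.80). With DESeq2 size factors 17 of these rose and 26 fell. With DESeq2 size factors the split of all calls went from 772 higher and 476 lower to 155 and 507 at 3 weeks, and from 3068 and 1967 to 1179 and 2102 at 8 weeks.

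The release of fatty acids comes first. All 9 phospholipase A transcripts listed at 8 weeks, enzymes that cut fatty acids from membrane lipids, rose at HT (7 with DESeq2 size factors, none lower). Of all transcripts tested at that age, 59.3% were called higher and 38% lower. All 9 were listed for differing in this contrast, and some have neighbouring identifiers. The most abundant (PGSC0003DMG402031759) went from 11.0 ± 5.90 to 628 ± 188 CPM (5.74 ± 0.59, edgeR, adjusted p = 0.00064). Listed lipases went both ways at 8 weeks, 4 up and 6 down (1 and 6 with DESeq2 size factors). Only 3 were called down without NT replicate 1 or NT replicate 2, and 4 without HT replicate 1 or NT replicate 3. The largest fall was that of triacylglycerol lipase SDP1 (PGSC0003DMG400008164), from 16.0 ± 9.10 to 0.660 ± 0.330 CPM (-4.69 ± 0.71, edgeR, adjusted p = 0.0015). At 3 weeks 1 phospholipase A1 (PGSC0003DMG400024160, 1.54 ± 0.43) and 1 triacylglycerol lipase (PGSC0003DMG400008303, 3.42 ± 0.46) rose, the former not with DESeq2 size factors or TMM (edgeR, adjusted p of 0.46 and 0.082).

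Of 9 further lipoxygenase transcripts listed at 8 weeks, 7 rose and 2 fell at HT, against 59.3% higher and 38% lower of all transcripts tested. With DESeq2 size factors 2 of the 9 rose and 2 fell. The most abundant at HT (PGSC0003DMG400032155) rose from 134 ± 41.4 to 1192 ± 266 CPM (3.06 ± 0.44, edgeR, adjusted p = 0.0014), which is 46.0 and 409 RPKM, so at HT it was above both lipoxygenases described here per transcript length. The clearest fall was that of PGSC0003DMG400032207, from 31.2 ± 1.27 to 6.63 ± 2.14 CPM (-2.33 ± 0.41, edgeR, adjusted p = 0.0023). Lipoxygenase B at NT, with 77.2 RPKM, was thus above each of these at NT. No further lipoxygenase was listed at 3 weeks.

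Alpha-DOX2 is annotated on 2 transcripts with neighbouring identifiers, listed at 8 weeks. PGSC0003DMG402000506 fell from 273 ± 35.3 to 27.0 ± 20.7 CPM (-3.43 ± 0.74, edgeR, adjusted p = 0.0041), and its difference was -4.06 without HT replicate 3. Its HT libraries were 4.90, 30.0 and 46.0 CPM, with replicate 1 lowest and replicate 3 highest, the same order as for Alpha-DOX1. PGSC0003DMG401000506 went from 7.59 ± 3.42 to 1.74 ± 2.32 CPM and did not pass the test (-2.22 ± 1.04, edgeR, adjusted p = 0.064). It passed with DESeq2 size factors (-3.50, edgeR, adjusted p = 0.024), with the replicate block (-3.36, adjusted p = 0.029) and without HT replicate 3 (-4.29, adjusted p = 0.0038).

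No transcript of allene oxide synthase or allene oxide cyclase, the steps after lipoxygenase towards jasmonic acid, was found by name at either age. Only transcripts listed as differing between HT and NT could be found, so this does not show that they were absent from the leaves. The family of 12-oxophytodienoate reductases includes the next step to jasmonic acid, but whether those listed carry it out was not tested. Among 4 listed at 8 weeks, 2 annotated as 12-oxophytodienoate reductase 1 fell (PGSC0003DMG400031362 by 2.00 and PGSC0003DMG400032813 by 1.60 on the log2 scale). Another rose (PGSC0003DMG400002952, 2.38 ± 0.61, not called with DESeq2 size factors) and the last had too few counts, so 1 rose and 2 fell, against 0 and 2 with DESeq2 size factors. 3-ketoacyl CoA thiolase 2 (PGSC0003DMG400029618), an enzyme of the beta-oxidation that shortens the jasmonate chain, fell from 395 ± 97.3 CPM to 49.5, 87.2 and 96.9 CPM in the HT libraries (-2.44 ± 0.44, edgeR, adjusted p = 0.0024).

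Fatty acid hydroperoxide lyase (PGSC0003DMG400001078), which cleaves lipoxygenase products to short aldehydes, rose at 8 weeks from 10.4 ± 2.17 to 227 ± 119 CPM (4.35 ± 0.52, edgeR, adjusted p = 0.00082), with libraries at 9.31, 9.06 and 12.9 CPM at NT and 363, 144 and 175 CPM at HT. Divinyl ether synthase (PGSC0003DMG400025158) was listed at 3 weeks only, at 0.263, 0.356 and 0.417 CPM at NT and 0.788, 3.37 and 1.43 CPM at HT. It rose by 2.02 ± 0.58 (edgeR, adjusted p = 0.011), a value of 1.27 without HT replicate 2 and not called with DESeq2 size factors (adjusted p = 0.26). Of 3 epoxide hydrolases at 8 weeks, 1 rose and 2 fell, also with DESeq2 size factors. The larger fall, that of PGSC0003DMG400011311, was -3.65 ± 1.03, and -2.74 without NT replicate 2. Its libraries had 42.3, 81.9 and 2.70 CPM at NT and 4.97, 1.89 and 3.91 CPM at HT. NT replicate 3 thus lay within the range of the HT libraries.

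**Figure D3:**
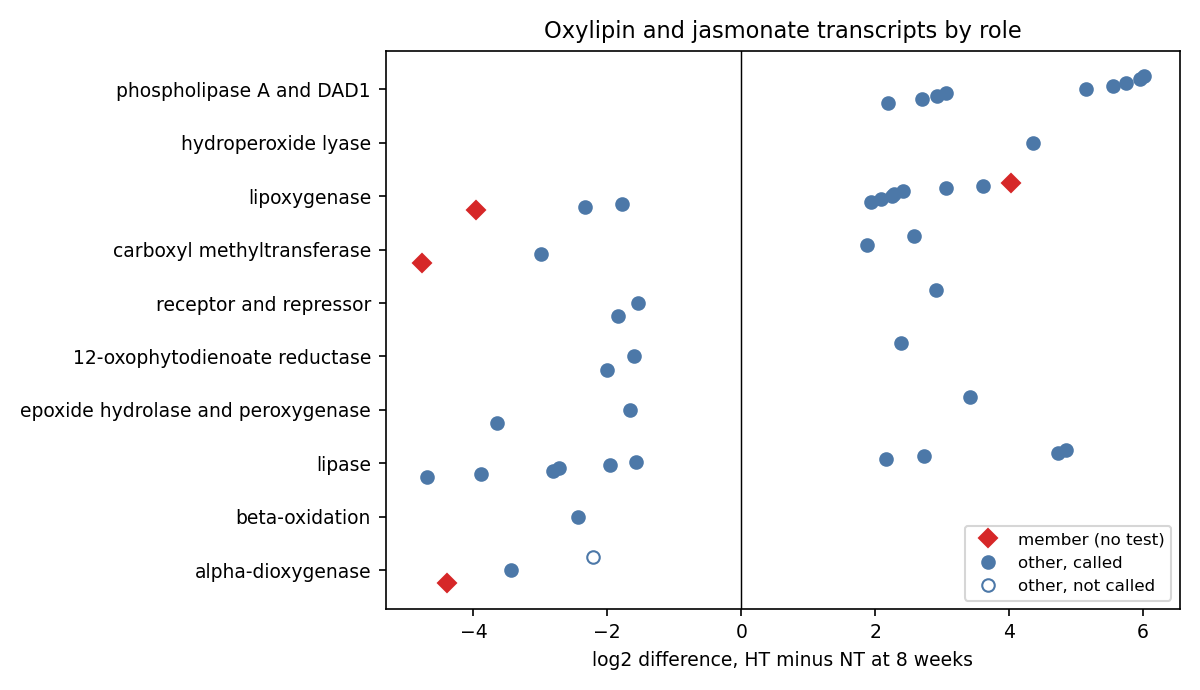
Log2 difference, HT minus NT at 8 weeks, of the tested enzyme and signalling transcripts by role; diamonds are the 4 transcripts described here, filled circles passed the edgeR test and the open circle did not. All phospholipase A transcripts lie to the right of 0 and all alpha-dioxygenases to the left, while lipoxygenases lie on both sides.

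A further jasmonate O-methyltransferase (PGSC0003DMG400003607) was listed at 8 weeks and fell from 71.1 ± 32.0 to 9.59 ± 4.06 CPM (-2.98 ± 0.56, edgeR, adjusted p = 0.0027). At NT its libraries were 91.1, 87.9 and 34.2 CPM, with replicate 3 lowest, as for the methyltransferase described above. Methyltransferases annotated for salicylic or benzoic acid had 2 higher (PGSC0003DMG400029623, 2.58 ± 0.64, and PGSC0003DMG400029624, 1.88 ± 0.60) and 1 with too few counts, and neither rise was called with DESeq2 size factors. The former was 3.52 without NT replicate 3, and the latter lost its call without HT replicate 3 or NT replicate 1 (adjusted p of 0.052 and 0.054, edgeR).

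Of 4 repressors and adaptors of jasmonate signalling listed at 8 weeks, 1 rose, 2 fell and TIFY 5A (PGSC0003DMG400008781) had too few counts, while 0 rose and 3 fell with DESeq2 size factors. The rise was that of TIFY 4B (PGSC0003DMG401020059), from 0.214 ± 0.154 to 1.74 ± 0.891 CPM (2.91 ± 0.78, edgeR, adjusted p = 0.0086), which was 3.52 without NT replicate 3 and not called with DESeq2 size factors (adjusted p = 0.063). Jasmonate ZIM-domain protein 1, a repressor of jasmonate signalling (PGSC0003DMG400002930) fell by 1.84 on the log2 scale at 8 weeks (edgeR, adjusted p = 0.019), a call lost without HT replicate 2, NT replicate 2 or NT replicate 3 (adjusted p of 0.057, 0.060 and 0.059). Its difference was -2.60 without HT replicate 3. A Ninja-family protein (PGSC0003DMG400001460), an adaptor of these repressors in Arabidopsis, fell by 2.00 at 3 weeks and by 1.53 at 8 weeks, the latter lost without NT replicate 1 or 2 or HT replicate 2 (adjusted p of 0.064, 0.099 and 0.058) and with the replicate block (adjusted p = 0.055).

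Transcripts known as jasmonate targets in wounded leaves were listed 12 times at 3 weeks and 18 times at 8 weeks. At 3 weeks 4 went up and 8 down, and 0 up and 8 down with DESeq2 size factors. At 8 weeks 8 went up, 7 went down, 1 did not pass the test and 2 had too few counts. With DESeq2 size factors 5 went up and 7 down at that age. Of all transcripts tested, 60.3% were called higher and 37.2% lower at 3 weeks, and 59.3% and 38% at 8 weeks. At 3 weeks the largest rises were those of polyphenol oxidases, which brown wounded tissue, PGSC0003DMG400018916 (2.75 ± 0.65, and 3.46 without NT replicate 2) and PGSC0003DMG400022430 (2.53 ± 0.78, and 4.03 without NT replicate 1). Neither was called with DESeq2 size factors (edgeR, adjusted p of 0.072 and 0.17), and the latter also missed the threshold with TMM. The largest falls were those of multicystatins, inhibitors of cysteine proteases, PGSC0003DMG400005921 (-3.62 ± 0.95, and -5.84 without HT replicate 3 or -3.02 without HT replicate 1) and PGSC0003DMG400005950 (-3.47 ± 0.50, and -4.10 without HT replicate 3). The former had only 0, 0.0330 and 0.226 CPM in the HT libraries.

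At 8 weeks the largest rises among these targets were those of a multicystatin (PGSC0003DMG400026899), from 0.414 ± 0.147 to 59.2 ± 62.4 CPM (7.06 ± 1.02, and 5.76 without HT replicate 1), and of threonine dehydratase (PGSC0003DMG400012987), from 1.15 ± 0.516 to 151 ± 136 CPM (6.94 ± 0.89, and 5.93 without HT replicate 1). HT replicate 1, the library with the lowest lipoxygenase B, Alpha-DOX1 and methyltransferase, was the highest for both, at 130 and 303 CPM, and had the highest sum of chlorophyll a-b binding proteins. Its part in these differences was tested only by leaving it out. The largest falls were those of CEVI57, a proteinase inhibitor of type 2, PGSC0003DMG400015290 (-6.10 ± 1.41, and -9.76 without HT replicate 3 or -5.51 without HT replicate 2) and PGSC0003DMG400002110 (-5.91 ± 1.06, and -6.85 without HT replicate 3). The former had 0.0174, 0 and 0.369 CPM in the HT libraries, so its -9.76 rests on very few counts. At NT the former had 13.0, 9.95 and 2.19 CPM and the latter 23.4, 22.7 and 2.99 CPM, with replicate 3 lowest for both.

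In the change with age, 11 signalling and target transcripts were listed at both ages. At NT 4 rose with age, 6 fell and 1 did not pass the test, against 46.2% of all transcripts tested that were called. The 4 rises stayed called in all 13 alternatives, while between 4 and 7 falls were called. Ethylene-responsive proteinase inhibitor 1 (PGSC0003DMG400003056) rose at NT by 6.12 ± 0.69 (edgeR, adjusted p = 2.5e-05), as did 3 polyphenol oxidases, by 3.88 to 5.56 (3.05 to 7.06 with 1 library left out). The 3 multicystatins, threonine dehydratase, a CEVI57 inhibitor (PGSC0003DMG400015289) and polyphenol oxidase PGSC0003DMG400018924 fell at NT. Of these falls, that of multicystatin PGSC0003DMG400005921 lost its call in 5 of the alternatives that leave out 1 library and that of the CEVI57 inhibitor in 4. At HT 4 rose with age and 7 did not pass the test, against 7.47% of all transcripts tested that were called. The rises were those of multicystatins PGSC0003DMG400005950 (3.65 ± 0.82) and PGSC0003DMG400026899 (3.69 ± 0.81), threonine dehydratase (3.94 ± 0.74) and the CEVI57 inhibitor (3.90 ± 1.02). Without HT replicate 1 of 8 weeks these were 2.28, 2.39, 2.93 and 2.68. None of the 4 was called without HT replicate 1 or 2 of 3 weeks or in a fit of the HT libraries alone, and 1 was called without HT replicate 3 of 3 weeks or with the replicate block (edgeR). Ethylene-responsive proteinase inhibitor 1 had 1.98, 9.11, 138 and 9.17 CPM as means of NT and HT at 3 weeks and NT and HT at 8 weeks, with the highest and lowest groups the same as for lipoxygenase B.

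**Figure D4:**
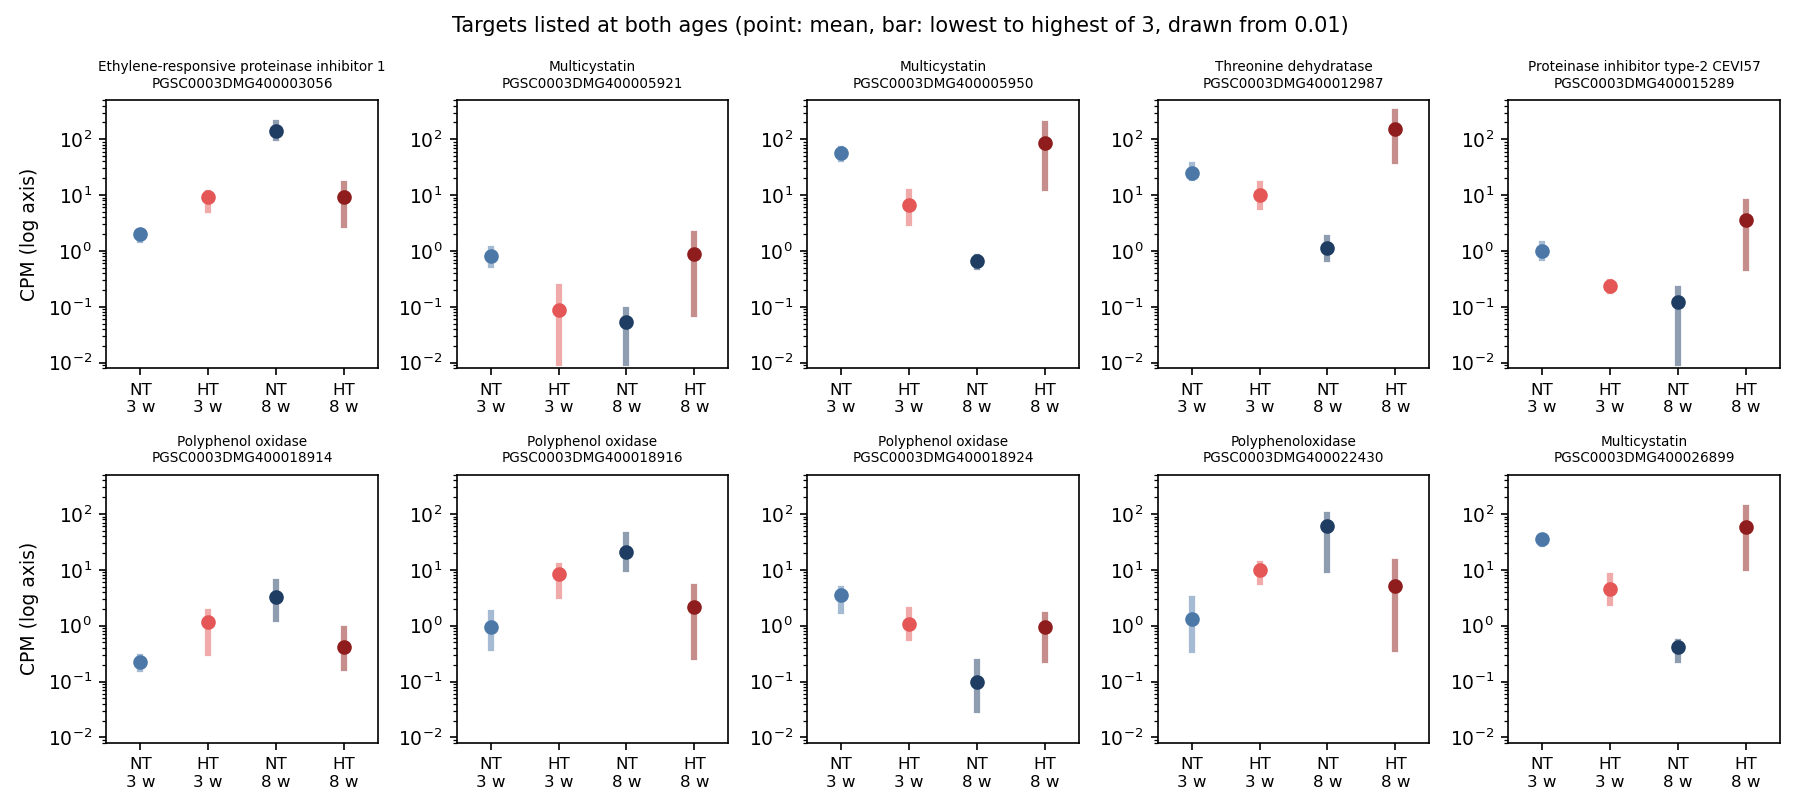
Levels of the 10 jasmonate target transcripts listed at both ages, in CPM on a log axis, with the mean as point and the lowest to highest of 3 libraries as bar (drawn from 0.01 where a library had no count). Multicystatin PGSC0003DMG400026899 is lowest at NT at 8 weeks (0.414 CPM), where ethylene-responsive proteinase inhibitor 1 is highest (138 CPM).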

How the data were processed

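Groups and replicate numbers came from the sample titles. Libraries were strand-specific and made from poly(A) RNA, per the labels' protocols. Names of the aligner, the counter and the build were not given in the sources used here. Lists deposited by the authors hold transcripts that differed between HT and NT, 1447 at 3 weeks and 5571 at 8 weeks, and a further table repeats the counts of the 580 in both. Each list was limited to a log2 fold change of 1.5 or more in size with a p-value below 0.01, as the deposited values show. The raw counts per library, as deposited by the authors, were used for all tests. Group means of counts, a signal the authors computed, were left untested. For the higher group the authors also deposited the mean RPKM. The deposited signed fold change, a score, was not used.

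Library totals were solved from the deposited RPKM, counts and lengths, because the lists hold from 1.76% to 23.2% of the counts of a library. The authors' log2 fold changes departed from those over these totals by a constant, -0.40 at 3 weeks (from 400 transcripts with a mean over 200 counts) and -0.095 at 8 weeks (from 2893), which was applied to the fits of HT against NT. Fits between ages used plain totals, and CPM is always counts over plain totals. The test was that of edgeR 4.0.16 (quasi-likelihood, two-sided, filterByExpr, Benjamini-Hochberg adjustment over all transcripts tested, threshold 0.05) in R 4.3.3, with DESeq2 1.42.0 as an alternative, and with Python 3.11.15 for tables. Standard errors are the absolute log2 difference over the root of F. Scripts were tested on simulated data, where the median estimate lay close to the fold changes set but only a minority of the changed transcripts passed the adjusted threshold, so a missed threshold says little. The simulation was changed once, to per-transcript dispersions, after its first result was seen.

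The 4 transcripts, the roles and the tests were chosen with earlier results of these data known, and the search words of each role were fitted to the spelling of the product names after the tables were read. Enzyme and signalling transcripts could be named freely, targets by the 2 largest rises and falls of an age, and like transcripts by the 3 highest Pearson r of log2(CPM + 0.5) among those with a mean of at least 10 counts. Triacylglycerol lipases and the targets named beyond that were added after their values were seen. Of the identifiers, 0 were found in the reference gene table, so no positions or sequences are given.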

Additional observations from a re-analysis of the deposited data

Results flagged for a closer look

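Only the 4 transcripts and the 11 signalling and target transcripts listed at both ages were searched. In 11 of those with a fitted difference at both ages, the HT libraries changed sides. Every HT library lay on one side of the NT mean at 3 weeks and on the other side at 8 weeks. The difference between ages was not tested as such, and each value below is the log2 difference HT minus NT at 8 weeks minus that at 3 weeks. It was -6.02 for lipoxygenase PGSC0003DMG400010859 and -6.14 for Alpha-DOX1. It was also negative for ethylene-responsive proteinase inhibitor 1 (-5.80) and for polyphenol oxidases PGSC0003DMG400018914 (-5.06), PGSC0003DMG400018916 (-6.12) and PGSC0003DMG400022430 (-6.22). It was positive for multicystatins PGSC0003DMG400005950 (10.37) and PGSC0003DMG400026899 (10.42), threonine dehydratase PGSC0003DMG400012987 (8.70), CEVI57 inhibitor PGSC0003DMG400015289 (7.21) and polyphenol oxidase PGSC0003DMG400018924 (5.24). Multicystatin PGSC0003DMG400005921 showed the same placement of its HT libraries but had too few counts at 8 weeks for a value. Of the 580 transcripts listed at both ages, 147 (25.3%) were listed with opposite signs, so opposite signs were common. The placement of every HT library was not counted over all 580. Neighbouring polyphenol oxidase identifiers appear on both sides, and reads shared between such similar genes were not tested.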

How the results depend on the processing

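The 4 transcripts kept the direction of HT minus NT at both ages under all 12 alternatives. For the change with age at NT, the calls of lipoxygenase PGSC0003DMG400010859, Alpha-DOX1 and the methyltransferase held in all 13 alternatives. Lipoxygenase PGSC0003DMG400020999 at NT turned from 0.20 to -0.94 with DESeq2 size factors, -1.55 with TMM and -0.96 with the DESeq2 Wald test, and ranged from -0.092 to 0.47 with 1 library left out. At HT with the authors' shift the change with age was 0.068 for lipoxygenase PGSC0003DMG400010859 and 0.12 for the methyltransferase. With 1 library left out the changes at HT ranged from -3.19 to 0.57 for that lipoxygenase, from -1.90 to 0.36 for Alpha-DOX1 and from -0.30 to 0.33 for the methyltransferase.

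The number of transcripts called for age at HT was 43, but 86 with the DESeq2 Wald test, 20 with the replicate block and between 8 and 104 with 1 library left out. The lowest values came without a 3-week HT library (9, 11 and 8) and the highest without HT replicate 1 of 8 weeks. The 1248 calls of HT against NT at 3 weeks became 662 with DESeq2 size factors and 767 with the DESeq2 Wald test. The 5035 calls at 8 weeks became 3281 with DESeq2 size factors. The causes were not tested, except that DESeq2 size factors by construction centre the listed transcripts. With TMM the 31 higher and 12 lower calls for age at HT became 26 and 17.

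Same-numbered libraries did not deviate together throughout. Their correlations were -0.060 to 0.165 at 3 weeks, -0.061 to 0.046 at 8 weeks, 0.0041 to 0.447 at NT and -0.147 to 0.217 at HT. Libraries of unlike number had -0.193 to 0.164, -0.103 to 0.113, -0.411 to 0.299 and -0.361 to 0.305. The 0.447 was that of replicate 1 at NT, above every pair of unlike number. What same-numbered libraries share beyond the number was not tested. The replicate block gave 257 calls for age at NT against 266, 1212 for HT against NT at 3 weeks and 4811 at 8 weeks. The fit of the methyltransferase to the HT libraries alone could not be made, because it did not pass the filter on low counts there. Levels of the methyltransferase at HT rest on at most 10 counts a library, which limits what can be read from them.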
